A study of Homo sapiens with 22 samples.

Results

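The genes described here build ribosomes. They are 59 protein-coding genes whose products transcribe ribosomal DNA with RNA polymerase I, process the precursor ribosomal RNA in the nucleolus and assemble both ribosomal subunits, together with METTL1 and WDR4, which form the enzyme that adds 7-methylguanosine to tRNA. They were chosen by name from 20136 protein-coding genes, by a rule that uses no measured value, although earlier results of these data were known. The measurements are ChIP-seq peak lists for N-MYC and WDR5 from CHP-134 and IMR-32, neuroblastoma cell lines that both carry extra copies of the gene for N-MYC. CHP-134 cells had received DMSO or a compound for 4 h, with 3 libraries per antibody in each condition, and IMR-32 cells were untreated, with 2 libraries per antibody. A field of the labels gives the DMSO as 0.0005% and another as 0.005%, and the labels disagree on the name of the compound, which is therefore left unnamed. Each library pooled 3 ChIPs, made with a custom serum against N-MYC or an antibody against WDR5. The study's methods call the replicates independent experiments, and the labels do not say whether they came from separate cultures, so that p-values measure the spread between these libraries.

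N-MYC is a transcription factor that binds DNA as a dimer with MAX, preferring the E-box CACGTG. Genes for ribosome production are among the best known targets of the MYC family, and tumour cells driven by MYC proteins are known for prominent nucleoli. WDR5 is a chromatin protein that binds the MYC proteins through a short motif and is known to sit at many genes for the ribosomal proteins themselves. The study asked whether WDR5 helps recruit N-MYC to conserved WDR5-bound genes, using an N-MYC mutant and depletion of WDR5 with ChIP-QPCR. With the ChIP-seq it asked where on chromatin the pair meet, and which N-MYC sites carry WDR5.

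An E-box lay near the N-MYC summit of many of these genes. Of the 56 genes with N-MYC in at least 2 CHP-134 DMSO libraries, 32 (57.1%) held CACGTG no more than 100 bp from the summit of the N-MYC peak, against 27.9% of all 7924 protein-coding genes with N-MYC by the same rule, and 1.79% in windows 2 kb away. CACGTG is its own reverse complement, so 1 search covers both strands. In IMR-32, 28 of 44 (63.6%) held it, against 42.2% of all such genes. In the RefSeq promoters (GRCh38.p14, 250 bases before to 50 after the start), which use no peak, CACGTG lay in 18 of the 50 matched genes (36.0%) and in 8.9% of 15318 promoters. The windows below are shown because they lie under the strongest N-MYC peaks, under both loci of the group that the study followed by ChIP-QPCR (METTL1 and SURF6), or in a gene for a subunit of RNA polymerase I. They are hg19 sequences on the strand of the gene, with the E-box in capitals and 10 bases on each side.
NCL, intron 1, chr2:232328553-232328578: ggcaagccgaCACGTGgtgggccccg
NCL, intron 1, chr2:232328496-232328521: gtgtttcgggCACGTGgtggcctacc
NCL, intron 1, chr2:232328471-232328496: caggtaccccCACGTGgccgcgccgc
NPM1, intron 1, chr5:170815568-170815593: ccgctgggagCACGTGgttgccacgt
NPM1, intron 1, chr5:170815579-170815604: acgtggttgcCACGTGgttgggggag
DKC1, intron 1, chrX:153991791-153991816: ctgccatagcCACGTGgtgaaccgga
DKC1, intron 1, chrX:153991818-153991843: gggaagccgaCACGTGcagtagccta
SURF6, upstream of the TSS, chr9:136203234-136203259: agcacaggaaCACGTGcgggaccggg
PES1, untranslated part of exon 1, chr22:30987869-30987894: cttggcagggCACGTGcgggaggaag
METTL1, upstream of the TSS, chr12:58165887-58165912: cctgcgcctcCACGTGgatttggtag
POLR1B, coding part of exon 1, chr2:113300185-113300210: gacgcgggcgCACGTGgagtccttca

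NCL, NPM1 and DKC1 carry 3, 2 and 2 copies, all inside intron 1. Those of NCL start 627, 684 and 709 bp downstream of the canonical transcription start site (TSS), those of NPM1 725 and 736 bp, and those of DKC1 662 and 689 bp. In 16 of the 32 genes an E-box instead started within 20 bp of the canonical TSS on either side. For METTL1 it started at -14 bp from the TSS, and for PES1 at 13 bp. Over all 32 genes the CHP-134 windows held 39 E-boxes, of which 17 lay in the untranslated part of exon 1, 11 upstream of the TSS, 10 in introns and 1, that of POLR1B, in coding sequence. The median distance from the N-MYC summit to the middle of the nearest E-box was 25.5 bp in CHP-134 and 11.5 bp in IMR-32. Of the 44 genes with N-MYC in both lines, 26 had the same E-box under the summit in both.

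By role, the E-box was under the CHP-134 summit of 11 of 15 N-MYC genes of the small subunit processome and 40S assembly, of 9 of 19 in 60S assembly and of 3 of 10 in the RNA polymerase I group. Those with it in the last group were POLR1B, TAF1D and LYAR. In IMR-32 these counts were 10 of 12, 7 of 14 and 3 of 7, the last with POLR1B, TAF1D and DDX21. Over all genes with N-MYC the shares were 27.9% in CHP-134 and 42.2% in IMR-32. Percentile here is the rank of a peak's fold within its own list, from 0 to 100. In CHP-134, genes with the E-box had a median N-MYC percentile of 85.7 and those without it 78.4. Over all protein-coding genes with N-MYC these medians were 72.7 and 50.0. NOLC1 and PPAN, with mean N-MYC percentiles of 98.5 and 96.8, had no CACGTG in the CHP-134 window. Another 13 of the 56 genes had no CACGTG but the related CACGCG there, which brought the share with either to 80.4%, against 51.0% of all genes with N-MYC.

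**Figure D1:**
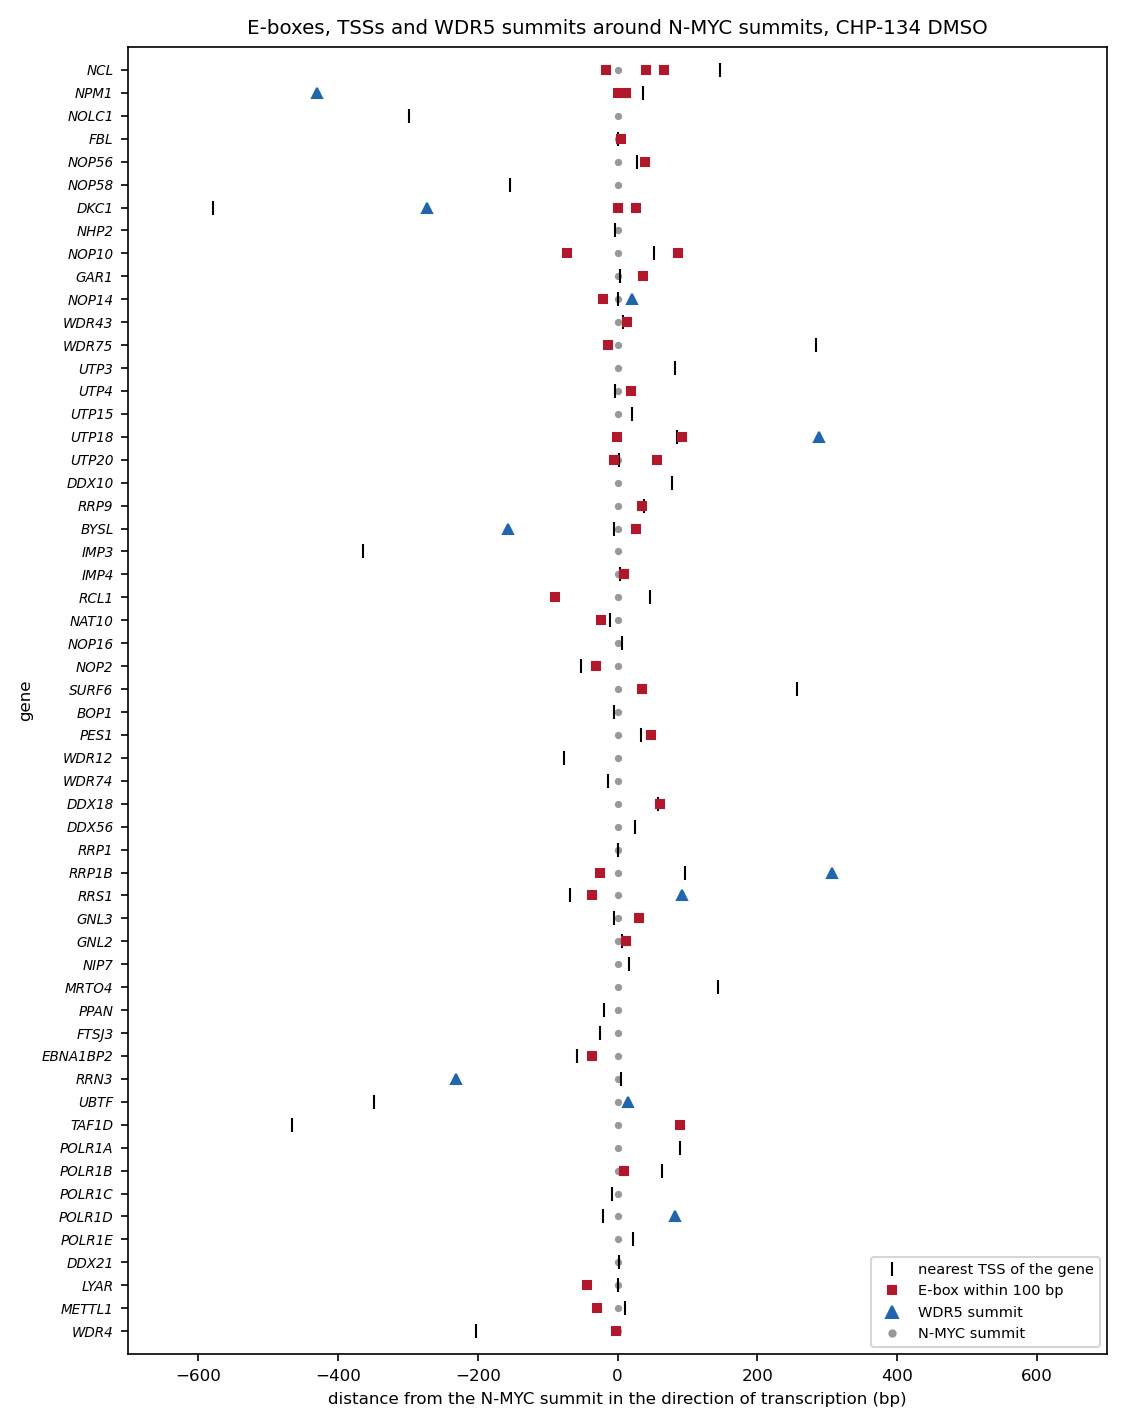
Distance in bp from the N-MYC summit of CHP-134 DMSO cells, in the direction of transcription, of E-boxes within 100 bp (red squares), the nearest annotated TSS of the gene (black bars) and the WDR5 summit (blue triangles), for the 56 genes with N-MYC. E-boxes lie on either side of the summit in 32 genes, and the WDR5 summits of NCL (1638 bp away) and TAF1D (at another TSS in replicate 1) fall outside the axis.

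Each library was peak called on its own by the authors, and a gene counts as having a peak in a library when a peak lies within 1 kb of any TSS of any of its transcripts. Where several did, the one with the highest fold was taken. A gene is called bound in a group when at least 2 libraries list a peak. The N-MYC lists of DMSO-treated CHP-134 cells hold 9125 to 15286 peaks and those of IMR-32 cells 5242 and 8286, while the WDR5 lists hold 1671 to 4891 and 1258 to 1693. Under the compound, N-MYC replicate 2 lists only 2964 peaks beside 11249 and 12313, and the WDR5 replicates list 5973, 15 and 401. The lists give no read totals, so depth is unknown, a missing peak means only that none was called, and ranks within a list were compared in place of folds, except in an alternative with log2 folds centred within each library. The IMR-32 libraries were paired-end and those of CHP-134 single-end, on another instrument and with another read length. IMR-32 cells were untreated, and the CHP-134 cells compared with them had received DMSO. The line, the DMSO and the sequencing therefore cannot be told apart.

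In DMSO-treated CHP-134 cells N-MYC was at nearly every gene of the group. Replicates 1, 2 and 3 listed a peak at 57, 52 and 57 of the 59 genes, against 46.2, 31.8 and 39.4% of all protein-coding genes. By the 2-library rule 56 genes (94.9%) were bound, against 39.4% of all genes, with 54 under the compound (31.3% of all genes) and 44 in IMR-32 (16.2% of all genes). With the strongest 2964 N-MYC peaks of each library alone, 36 genes (61%) were bound in DMSO, against 11.6% of all genes. Under the compound 42 (71.2%) and in IMR-32 37 (62.7%) were bound that way, against 10.8 and 8.03% of all genes. Of 107 other ribosome biogenesis genes, from a list of further factors of the same pathway, 86 (80.4%) were bound by N-MYC in DMSO, as were 73 of 79 cytosolic ribosomal protein genes (92.4%). The N-MYC peaks here also ranked high. The median percentile of the listed genes was 88.6, 82.9 and 81.6 in replicates 1 to 3, a mean of 84.4 ± 3.72 (SD, n = 3), beside 57.8 ± 2.76 for all protein-coding genes with a peak, 63.7 ± 9.02 for the other ribosome biogenesis genes and 72.9 ± 3.0 for the ribosomal protein genes. Of the 56 genes, 16 (28.6%) had a mean percentile of 90 or more, as did 9.54% of all genes with N-MYC, and 6 had a mean under 50. No test was run over the genes, which are not replicates. In all 8 N-MYC libraries of both lines and both treatments, 33 of the 59 genes (55.9%) were listed, against 8.13% of all genes.

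**Figure D2:**
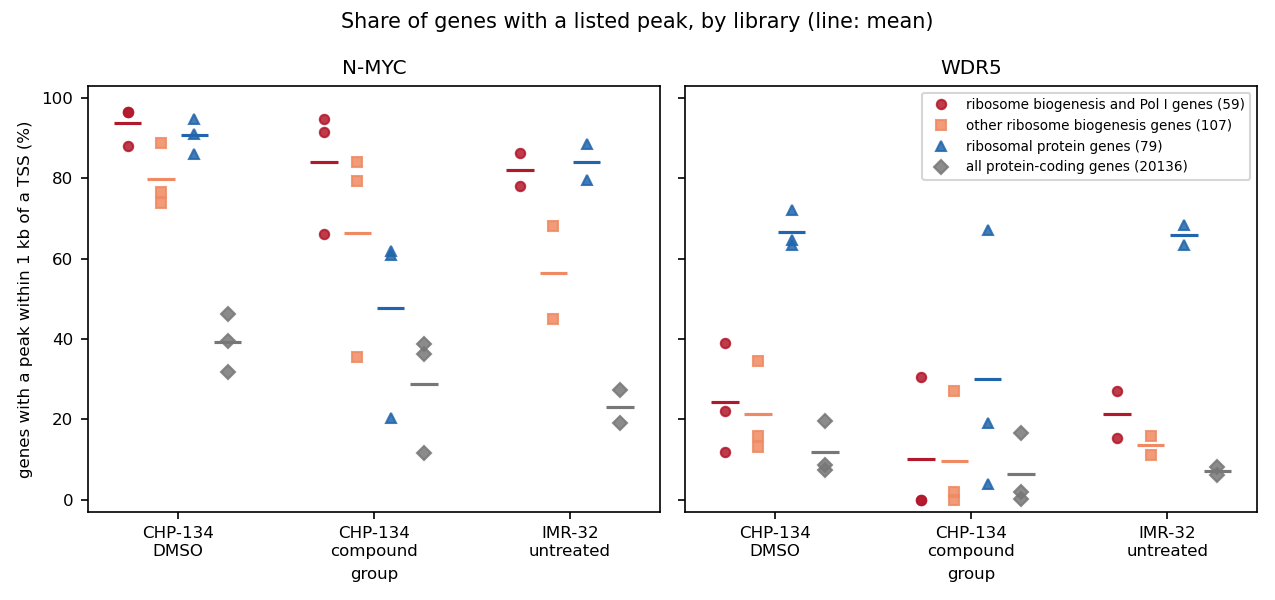
Percent of genes with a peak within 1 kb of a TSS in each library (points) and the mean over libraries (lines), for N-MYC (left) and WDR5 (right), in the 59 genes, the 107 other ribosome biogenesis genes, the 79 ribosomal protein genes and all 20136 protein-coding genes. For N-MYC the 59 genes lie between 88.1 and 96.6% in DMSO, and for WDR5 the ribosomal protein genes lie far above them.

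NCL and NPM1, of the nucleolar chaperones and scaffolds, had the strongest N-MYC peaks of the group in DMSO. NCL encodes nucleolin, an abundant nucleolar RNA-binding protein, and its percentiles were 100, 100 and 99.7 in DMSO. Its peak, at chr2:232328186-232329726 in replicate 1, was 2nd of 15286, 3rd of 9125 and 33rd of 12283 peaks by fold. NPM1 encodes nucleophosmin, a chaperone that gives the nucleolus its granular compartment, and had percentiles of 99.5, 100 and 100, with ranks of 79, 4 and 5. Both were among the strongest 79 peaks of every DMSO list. NOLC1, the other gene of this role, whose product Nopp140 shuttles snoRNA-protein particles, had 98.4, 98.9 and 98.2. Its mean of 98.5 was below the 98.8 of DKC1.

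The snoRNP proteins guide chemical modification of ribosomal RNA. The box H/ACA particle carries DKC1 (dyskerin), the pseudouridine synthase, with N-MYC percentiles of 99.1, 99.6 and 97.8 in DMSO. Its partner NHP2 was among the lowest of the group at 23.6, 16.6 and 84.3, a mean of 41.5 with replicate 3 far above the others. The other partners were in between, with means of 84.6 for GAR1 and 57.4 for NOP10. In the box C/D particle NOP56 was high in every replicate at 93.8, 95.6 and 94.9. Its partner NOP58 had a mean of 57.1. The methyltransferase FBL (fibrillarin) varied, with 85.1, 90.2 and 36.6. All of these 7 proteins' genes had N-MYC in all 3 DMSO libraries. The gene bodies of 10 of the 59 hold annotated small nucleolar or Cajal body RNA genes, and TAF1D alone holds 8 such RNA genes. Of the 10, 9 were bound by N-MYC with a median mean percentile of 91.8, beside 79.2 for those of the other 49 genes that were bound.

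Of the 17 genes of the small subunit processome and 40S assembly, 15 were bound by N-MYC in DMSO. NOP14, a processome subunit, had the highest mean of them, from 88.9, 96.7 and 95.8. The exceptions were DDX47, an RNA helicase, with no N-MYC peak in any of the 8 N-MYC libraries, and RRP12, which acts in export of the subunits, listed in DMSO replicate 1 alone at a percentile of 29.3. WDR75, which belongs to the UTP-A complex that joins the precursor first, had 89.9, 26.5 and 19.8. Replicate 1 therefore ranked it high and the others low.

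Of the 20 genes for 60S assembly, 19 were bound. SURF6, a nucleolar factor for the large subunit, was at 98.5, 97.5 and 95.6. PES1, BOP1 and WDR12 encode the PeBoW complex, which is needed to process the precursor of the large subunit RNAs, and their means were 96.5, 82.3 and 78.5. PPAN was also uniformly high at 96.1, 97.3 and 96.9. FTSJ3, a methyltransferase for precursor RNA whose promoter is shared with the proteasome gene PSMC5, had the lowest mean of the genes listed in all 3 replicates, from 14.6, 0.0 and 15.3. NOP2 (mean 53.7), an RNA methyltransferase, and EBNA1BP2 (55.6) were also among the lowest 5 of the genes listed in all 3. Of the bound genes listed in 2 replicates, DDX56 had a mean of 21.7, NIP7 one of 35.9 and POLR1D one of 47.7. NOP53 was listed in DMSO replicate 3 alone, at 46.4. FTSJ3 is not alone in lying beside another gene. Of the 59 genes, 22 have a protein-coding gene on the opposite strand with a TSS within 1 kb of their canonical TSS. Whether the 2 genes of a pair overlap was not examined. In DMSO N-MYC was bound at all 22 of them and WDR5 at 5. Among the 37 others, N-MYC was bound at 34 and WDR5 at 7. Peaks at such shared promoters were counted for the gene of the group. Which gene of the pair they belong to was not tested.

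All 10 genes of the RNA polymerase I group were bound by N-MYC in DMSO. Of the polymerase subunits, POLR1B, the second largest, ranked highest with 90.9, 99.4 and 85.5. POLR1A, the largest, was listed in replicates 1 and 3 at 98.7 and 73.2 and not in replicate 2. POLR1C and POLR1D, which the enzyme shares with RNA polymerase III, ranked lower. POLR1C had 57.8, 77.1 and 63.1, and POLR1D had 51.1 and 44.3 in replicates 1 and 3 only. POLR1E, a subunit particular to RNA polymerase I, had 95.7, 78.9 and 63.1. RRN3, which brings the polymerase to the promoter, had 84.8, 90.5 and 76.6. UBTF, the factor that keeps ribosomal DNA open, had 90.8, 88.0 and 50.6. Its highest peak lay in intron 13, 9022 bp downstream of the canonical TSS and 349 bp from an alternative one. TAF1D of the SL1 promoter complex had 98.1, 62.8 and 51.5. METTL1 was at 98.1, 84.8 and 94.6 and its partner WDR4 at 52.9, 93.4 and 66.9.

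**Figure D3:**
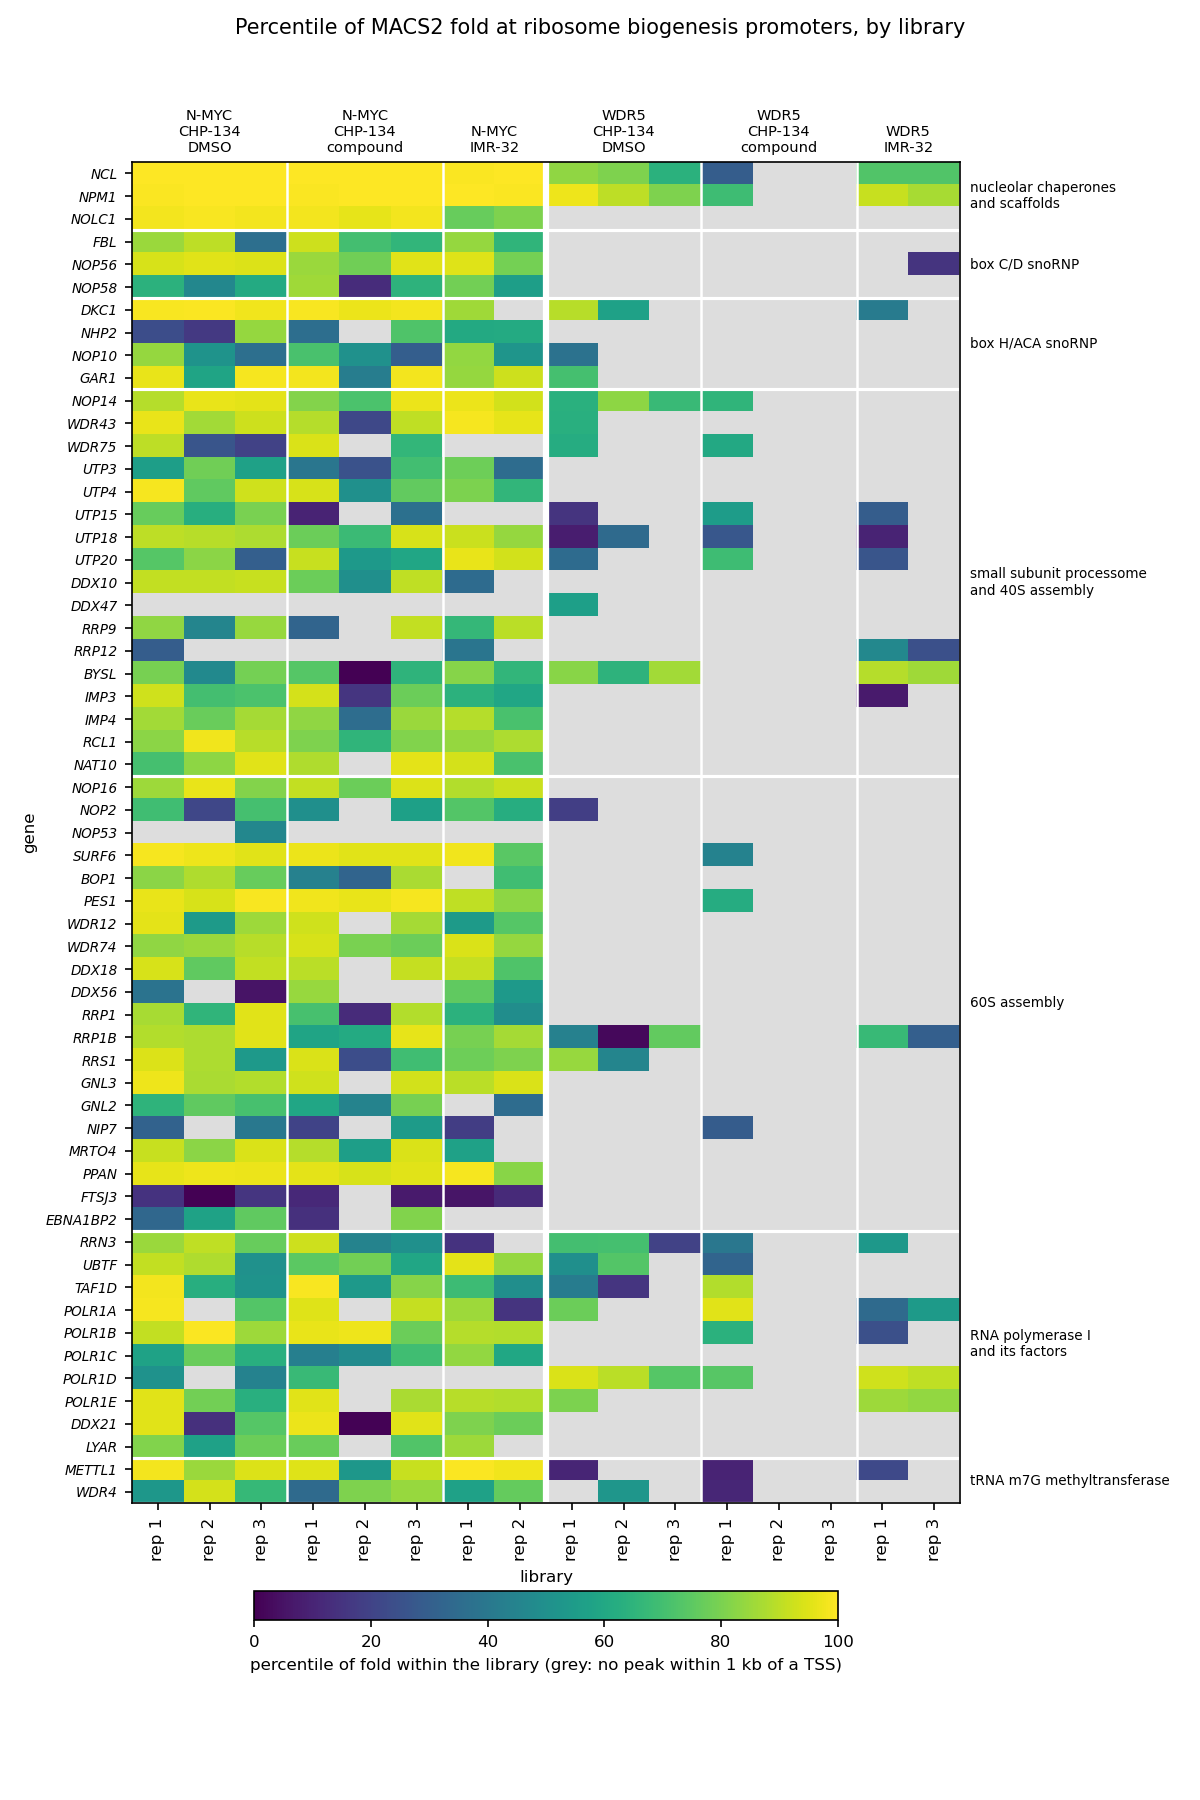
Percentile of the fold of each gene's strongest peak within its library (colour, 0 to 100) for the 59 genes in rows, ordered by role, and the 16 libraries in columns. Grey marks no listed peak. N-MYC columns are filled for most genes, NCL and NPM1 are near 100 in all 8 of them, and WDR5 replicates 2 and 3 under the compound are empty.

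WDR5 was at few of these genes. Replicates 1, 2 and 3 of the DMSO libraries listed 23, 13 and 7 of them, against 19.5, 8.51 and 7.38% of all protein-coding genes. By the 2-library rule 12 genes (20.3%) were bound, against 8.73% of all protein-coding genes. Each of the 12 was also bound by N-MYC, as were 91.2% of all 1757 genes with WDR5, and 7.96% of all protein-coding genes had both. Among genes with N-MYC, the share that also had WDR5 was 21.4% here and 20.2% over all protein-coding genes. Of the ribosomal protein genes 51 of 79 (64.6%) were bound by WDR5, and their mean WDR5 percentiles had a median of 97.9, beside 68.3 for the 12 genes here and 56.4 for all WDR5 genes. The count leans on the libraries, since 7 genes were listed in all 3, which is also the count without replicate 1 or without replicate 2. Those 7 are 11.9% of the group, and of all genes 4.33% were bound without replicate 1 and 5.82% without replicate 2.

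Those 7 were NPM1, POLR1D, BYSL, NCL, NOP14, RRN3 and RRP1B. NPM1 had the highest mean WDR5 percentile, from 97.3, 90.2 and 80.6. POLR1D came next with 94.5, 89.8 and 73.8, although its N-MYC percentiles were among the lower ones. BYSL, which encodes bystin of 40S assembly, had 82.4, 64.6 and 86.1, NCL 83.3, 80.8 and 63.7, and NOP14 63.3, 83.0 and 67.9. RRN3 differed between replicates, at 70.3, 70.4 and 19.7. RRP1B, a nucleolar protein of 60S assembly that also binds a phosphatase, had the widest range, at 43.9, 2.2 and 75.8. The other 5 genes were listed in replicates 1 and 2 only. Of these, DKC1 had 89.2 and 57.4 and RRS1 84.7 and 45.6. UBTF had 49.7 and 73.2, TAF1D 41.9 and 15.4, and UTP18 7.9 and 34.6. UBTF and TAF1D counted as bound through alternative starts: with the canonical TSS alone, a setting chosen after seeing the data, 10 genes were bound. In replicate 1 the summit of the strongest WDR5 peak of TAF1D lay at -42624 bp from its canonical TSS, where a negative distance is upstream, and in replicate 2 it lay 3 bp from the N-MYC summit of replicate 2.

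By their medians, the WDR5 summits of 12 genes in CHP-134 lay farther from the TSS than the N-MYC summits of 56. These medians are over different sets of genes, so their difference is not one at the same genes. For each gene the summit of the library with the highest −log10 q was taken. In CHP-134 the N-MYC summits lay a median of 26.5 bp from the nearest annotated TSS, without regard to side, beside 124 bp for all genes with N-MYC. The WDR5 summits of the 12 genes lay a median of 223 bp away, 8 of them downstream, beside 159 bp for all genes with WDR5. CACGTG was within 100 bp of 1 of the 12 WDR5 summits (8.33%), beside 22.0% of all WDR5 genes. At NPM1 both summits were in intron 1, at positions 170815580 for N-MYC and 170815150 for WDR5 on chromosome 5, 430 bp apart. In IMR-32 they were at 170815583 and 170815146, within 4 bp of the CHP-134 positions. At NCL N-MYC peaked in intron 1 and WDR5 at -993 bp from the canonical TSS, 1638 bp away, and in IMR-32 the gap was 1613 bp with no overlap of the peaks. Over all pairs of DMSO libraries the gap at NCL ran from 541 to 1638 bp, the shorter ones from WDR5 replicate 1, and that at NPM1 from 364 to 455 bp. At DKC1, UTP18, BYSL, RRP1B and RRN3 it was between 156 and 463 bp in every pair. It ran from 15 to 81 bp at UBTF, 5 to 176 bp at NOP14 and 36 to 201 bp at RRS1. At POLR1D it ran from 82 to 996 bp, with the N-MYC summit at different places in replicates 1 and 3. Genes with both proteins had a median N-MYC percentile of 86.5 and N-MYC genes without WDR5 one of 80.8. Over all protein-coding genes the medians were 73.4 and 52.2.

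Under the compound N-MYC stayed listed at almost all of these genes. Of the 56 genes bound in DMSO, 54 were bound after 4 h of compound, and the other 2 (3.57%) were DDX56, an RNA helicase, and POLR1D, where 23.7% of all N-MYC genes were no longer bound. None of the 50 genes with a mean DMSO percentile of 50 or more was missing, against 8.68% of all such genes and 37.7% of the 53 such ribosomal protein genes. POLR1D was listed in 1 of 3 compound libraries, at 67.6, and DDX56 at 84.6. Within replicate numbers, 1 of 57 genes listed in DMSO was missing in replicate 1, 13 of 52 in replicate 2 and 3 of 57 in replicate 3. Over all protein-coding genes the missing shares were 25, 63.7 and 13.2%, and over the ribosomal protein genes 36.0, 76.5 and 33.3%. Compound replicate 2, with the shortest N-MYC list, lacked 17 of the 56 genes (30.4%), against 70.5% of all genes bound in DMSO.

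The rank of the N-MYC peaks was compared over the 2239 protein-coding genes listed in all 6 CHP-134 libraries, 39 of them from the group, with limma and Benjamini-Hochberg adjustment over all genes tested. Of all genes, 0.0% were called higher and 0.0% lower. At an unadjusted p under 0.05 there were 63 genes and none from the group. The median difference of the 39 genes, compound minus DMSO, was -8.61 percentile points and that of all genes tested -9.95, with 33 of the 39 lower. Log2 folds were centred on each library's median over the genes tested, which removes a shift common to all genes. On these the medians were 0.032 and -0.00201, with 26 of the 39 higher, so they show only the group relative to all genes tested. Without compound replicate 2 the medians of the percentile differences were -0.126 over 52 genes and -0.576 over all 4939, again with none called. Without that library, the shortest N-MYC list, the shift was therefore near 0 in the group and over all genes. In simulated data a shift of 50 points was called in 78.0% of genes and one of 25 points in 18.0%. The simulation gave every gene an SD of 15.7 points, taken from the DMSO libraries alone. The spread of the compound libraries was not used, so these shares need not hold for the real comparison.

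The largest differences of the group were at BOP1, RRP1, WDR43, BYSL and RRN3, and none passed. BOP1 was at 82.5, 87.9 and 76.6 in DMSO and at 44.1, 32.4 and 87.2 under the compound, a difference of -27.8 ± 15.2 points (SE, limma, adjusted p = 0.86). Compound replicates 1 and 2 lay below every DMSO value and replicate 3 lay among them. RRP1, the paralogue of RRP1B, was at 86.9, 65.6 and 95.6 in DMSO and at 70.9, 12.3 and 88.3 under the compound. WDR43, of the UTP-A complex, was at 96.7, 86.3 and 92.5 and then at 88.9, 21.8 and 90.3. BYSL was at 79.3, 47.3 and 79 and then at 73.7, 0.3 and 65.0. In each of these the lowest value was that of compound replicate 2. For RRN3 the compound values were 92.2, 44.8 and 50.1, and the group overlapped that of DMSO. Only DDX10, PPAN and RCL1 had every compound value below every DMSO value, 3 of 39, where 6.79% of all genes tested did. The highest ranked genes of DMSO were high under the compound too. NCL had 100, 99.9 and 99.8 under the compound, NPM1 99.4, 99.9 and 100, SURF6 97.0, 95.6 and 95.5 and DKC1 99.2, 97.2 and 98.4. METTL1 had 95.1, 53.0 and 91.7, where 53.0 again belonged to replicate 2. UTP15, another processome gene, fell outside the test because replicate 2 lacked it, and had 10.1 and 36.9 in the other compound libraries after 76.7, 62.6 and 79.8 in DMSO. It is named after its values were seen.

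**Figure D4:**
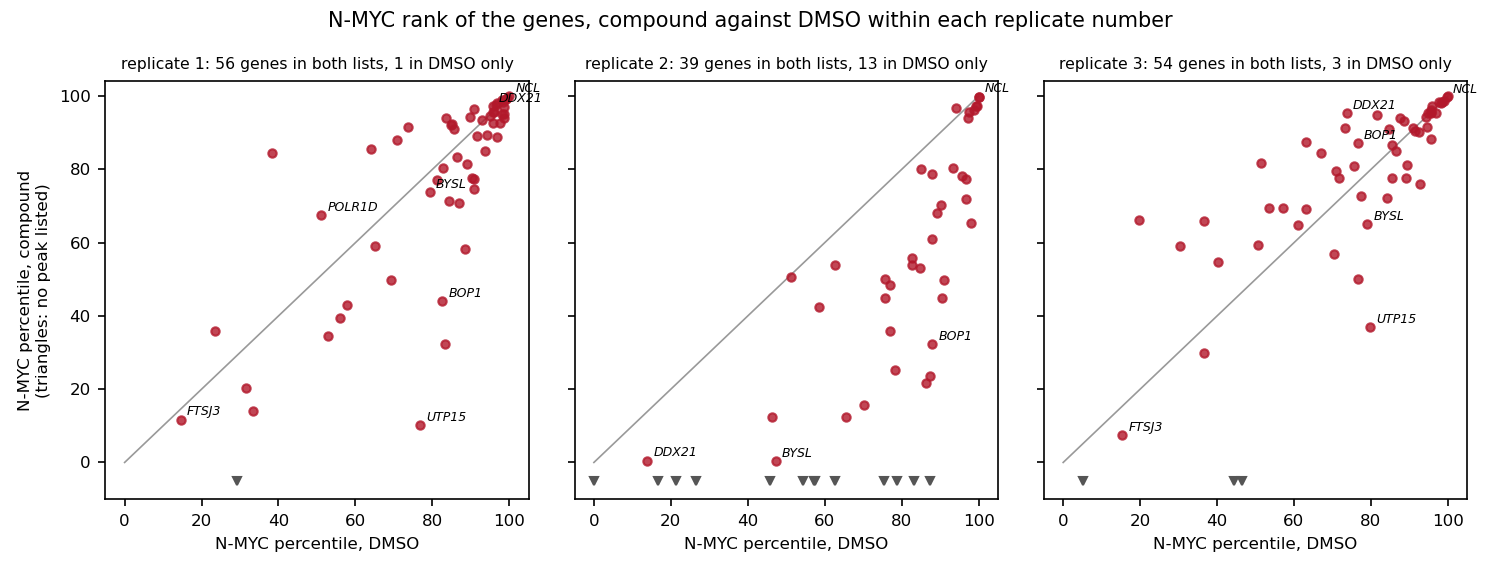
N-MYC percentile under the compound against that in DMSO, 1 panel per replicate number, for the genes listed in both libraries (red points) and those listed in DMSO only (triangles at the bottom). The line marks equal percentiles. Points lie around the line in replicates 1 and 3, and 38 of 39 lie below it in replicate 2, where 13 genes were listed in DMSO only.

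WDR5 under the compound could be read at these genes in 1 library only. Replicate 1 listed 18 of the 59 (30.5%), against 16.7% of all genes. Replicates 2 and 3, with 15 and 401 peaks, listed none. No gene of the group was therefore bound by the 2-library rule, against 1.37% of all genes. None had both proteins, against 1.24% of all genes. Of the ribosomal protein genes 53, 3 and 15 of 79 were listed in those libraries. Replicate 1 held a peak at 8 of the 12 genes with WDR5 in DMSO. At 3 of the 8 (37.5%) its percentile was below every DMSO value, where 33.3% of all such genes were. NCL was one of them, at 29.6 after 63.7 to 83.3, and NPM1 another, at 68.9 after 80.6 to 97.3. The last was UBTF, at 32.1. TAF1D was above both DMSO values, at 88.3, and was 1 of 8 (12.5%) above every DMSO value, where 34.2% of all such genes were. Its DMSO values come from peaks at different sites, so they are not a range at 1 site. The site of its compound peak is not given here. POLR1D, at 74.2, NOP14, at 65.5, RRN3, at 39.8, and UTP18, at 27.3, were within theirs. POLR1A, listed in DMSO replicate 1 alone at 77.6, stood at 95.5. In the comparison of ranks, which used the libraries with at least 100 peaks, 151 genes could be tested and 7.28% were called lower and 0.0% higher. These 11 calls became 0 with the replicate number as a block and without DMSO replicate 2 or 3, 5 without DMSO replicate 1, and 33 and 90 without compound replicates 1 and 3. None of the 59 genes was among the 151 tested. Of those tested, 21.2% had every compound value above every DMSO value and 23.2% every value below.

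In untreated IMR-32 cells N-MYC was bound at 44 of the 56 genes it held in DMSO-treated CHP-134 cells, and at no other gene of the group. The missing 12 (21.4%), where 60.8% of all N-MYC genes were missing, included DKC1, POLR1D and RRN3. Of the 73 ribosomal protein genes with N-MYC in DMSO, 12 (16.4%) were missing. Among those with a mean DMSO percentile of 50 or more 9.43% were missing, beside 18% of such genes here and 44.1% of all such genes. The IMR-32 lists are shorter. With the same number of strongest peaks taken from each library, N-MYC was bound at 37 genes of the group in IMR-32 and 36 in CHP-134 DMSO. DKC1, the gene with the third highest mean in CHP-134, was listed at 85.8 in IMR-32 replicate 1 and not in replicate 2. RRN3 and DDX10 were at 14.6 and 34.9 in replicate 1 and were not listed in replicate 2, after 76.6 to 90.5 and 90.9 to 91.5 in CHP-134. UTP15 and WDR75 were in neither IMR-32 list. When an unlisted peak was given a percentile of 0, DDX10, RRN3 and UTP15 passed as lower in IMR-32, 3 of the 55 genes of the group tested that way (5.45%), beside 358 of 6664 genes in all (5.37%). The median percentile of the listed genes was 84.3 and 77.0 in the IMR-32 libraries, a mean of 80.7 ± 5.16 (SD, n = 2), beside 55.8 ± 2.26 for all genes.

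Ranks were compared over 2824 genes listed in all 5 libraries, 42 of them from the group. limma called 0.0% of all genes higher and 0.0% lower in IMR-32, and 389 genes, 1 of them from the group, had an unadjusted p under 0.05. The group's median difference, IMR-32 minus CHP-134, was -0.184 points and that of all genes tested -6.34. On centred log2 folds, where the centring holds the median of all genes tested near 0, they were 0.19 and 0.0439. The genes with the largest differences were UTP20, RRP1, NOLC1, NHP2 and DDX21. UTP20, a scaffold of the processome, was at 73.6, 82.6 and 30.4 in CHP-134 and at 96.7 and 93.3 in IMR-32, a difference of 32.8 ± 17.7 points (SE, limma, adjusted p = 0.5). It was 1 of 42 genes with both IMR-32 values above every CHP-134 value, as were 6.8% of all genes tested. NOLC1 was at 98.4, 98.9 and 98.2 in CHP-134 and at 76.8 and 80.6 in IMR-32, a difference of -19.8 ± 5.04 points (SE, limma, unadjusted p = 0.014, adjusted p = 0.23), and did not pass. Both IMR-32 values lay below every CHP-134 value at 5 of 42 genes, NOLC1, RRP1, PES1, IMP3 and RRP1B, as at 25.1% of all genes tested. RRP1 was at 64.4 and 48.9. NHP2, at 60.7 and 61.3, and DDX21, an RNA helicase that links polymerase I transcription to processing, at 80.7 and 77.6, lay within the wide CHP-134 ranges of 16.6 to 84.3 and 13.9 to 95.7.

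NCL and NPM1 were at the top in this line as well, at 99.6 and 99.9 and at 99.9 and 99.3. METTL1 was at 99.3 and 97.9 and SURF6 at 97.9 and 74.3. Of the polymerase subunits, POLR1B had 88.8 and 88.5, POLR1E 89.1 and 88.6, POLR1C 83.9 and 59.4 and POLR1A 85.4 and 15.1, while POLR1D was not listed. FTSJ3 was the lowest again, at 5.5 and 11.8, and NOP2 had 73.3 and 62.3. EBNA1BP2 and NOP53 were not listed, and neither was DDX47.

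**Figure D5:**
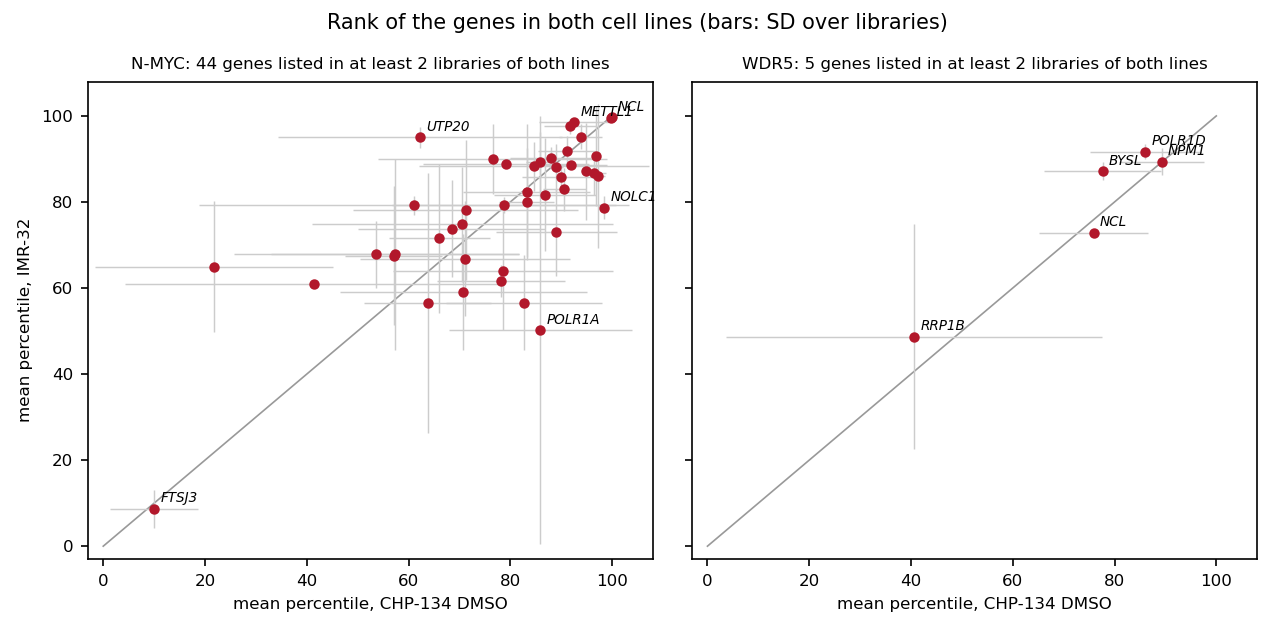
Mean percentile in IMR-32 against that in CHP-134 DMSO, for N-MYC (left, 44 genes) and WDR5 (right, 5 genes), for genes bound in both lines. Bars are the SD over the libraries that list the gene, of which there are at most 3 and 2, and the line marks equal percentiles. NCL and NPM1 sit at the upper end and FTSJ3 at the lower end for N-MYC.

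WDR5 was bound in IMR-32 at 8 genes of the group (13.6%, against 4.99% of all genes). Replicate 1 alone listed 16 (8.16% of all genes) and replicate 3 alone 9 (6.13%), and with the strongest 401 peaks of each library the count was 4 (1.77%). Of the 8 genes, 6 (75%) had N-MYC too, as did 53.8% of all genes with WDR5, and 2.69% of all protein-coding genes had both. BYSL, NCL, NPM1, POLR1D and RRP1B were shared with CHP-134. The 7 of 12 genes without WDR5 in IMR-32 (58.3%) compare with 59% of all WDR5 genes. NPM1 was at 91.7 and 87.1, NCL at 72.9 and 72.8, BYSL at 88.7 and 85.7, POLR1D at 92.9 and 90.5 and RRP1B at 67.2 and 30.2. The ranges of the lines overlapped at all 5 genes, where 8.57% of the 537 genes tested had every IMR-32 value above those of CHP-134 and 23.5% every value below. limma called 0.0% of them higher and 0.0% lower, and 71 had an unadjusted p under 0.05. BYSL had the largest difference of the 5, 9.5 ± 7.74 points (SE, limma, adjusted p = 0.79). On log2 folds centred within each library, in place of percentiles, BYSL and POLR1D passed as higher in IMR-32, by 0.93 (limma, adjusted p = 0.022) and 1.52 (limma, adjusted p = 0.00046), 2 of 5 genes of the group, beside 34.3% of the 537 genes tested. POLR1E, at 85.4 and 83.7, and POLR1A, at 34.6 and 54.3, were bound in IMR-32 and listed in 1 CHP-134 library each, at 80.1 and 77.6. POLR1E had its WDR5 summit in intron 2, 1181 bp from that of N-MYC. RRP12, at 46.7 and 24.6, had its WDR5 summit at -25108 bp from the canonical TSS and was not bound with the canonical TSS alone. POLR1D kept WDR5 in 2 libraries of IMR-32, where neither list had N-MYC.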

How the data were processed

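ChIP-seq peak lists of N-MYC and WDR5 were analysed, 16 in all. Per the study's methods and the labels, Cutadapt trimming and Bowtie2 alignment to hg19 preceded peak calling by the authors, library by library, with MACS2 at a q-value of 0.05. Versions and the control library are not given in the sources used here. The deposited fold is a ratio over local background. It was ranked within its list as a percentile, since folds of different lists have different backgrounds. The deposited −log10 q-value was used to choose the summit and for a stricter setting. The summit offset gave positions. The IgG samples were not analysed here.

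TSSs came from GENCODE 44 lifted to GRCh37. BOP1 has no canonical transcript there, and its longest basic coding transcript was used. Percentiles were compared with limma 3.58.1 (R 4.3.3), two-sided, over all protein-coding genes listed in every library compared, in libraries of at least 100 peaks, with Benjamini-Hochberg adjustment and a threshold of 0.05. An exact permutation test of 3 against 3 libraries cannot go below 0.1 and was not used. The assignment and the limma step were tested on simulated data. Alternatives were the distance and the TSSs used, a −log10 q of at least 5, the number of libraries required, equal numbers of strongest peaks, centred log2 folds, ranks among the genes tested, unlisted peaks as percentile 0, the replicate number as a block, E-box windows of 50 and 250 bp, and leaving out each library.

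The replicate numbers pair the N-MYC compound and DMSO libraries. Deviations from the group means correlated at 0.591, 0.539 and 0.588 for the same number and at -0.348 to -0.247 for different numbers, over 2239 genes.

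The genes and the comparison lists were chosen with earlier results of these data known. Values are printed for genes with WDR5 in either line, the 5 highest and 5 lowest N-MYC means among genes listed in all CHP-134 DMSO libraries, genes with N-MYC in fewer than 2 of these, the 5 largest differences of each comparison, METTL1, SURF6 and the POLR1 subunits. Others were named after their values were seen, as examples of their role or members of a small count.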

Additional observations from a re-analysis of the deposited data

How the results depend on the processing

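No read depth is known, a gene can be missing from a list because the list is short, and WDR5 after the compound rests on 1 library. The N-MYC counts in all 3 conditions moved by less than 1.5 times under every alternative but one. With the strongest 2964 N-MYC peaks of each library, 36 of 59 genes had N-MYC in CHP-134 DMSO (11.6% of all genes). The same rule gave 42 under the compound (10.8% of all genes) and 37 in IMR-32 (8.03%). With WDR5 the number of libraries decided the count. In CHP-134 DMSO it was 7 with a peak required in every library, 24 with 1 library and 2 with the strongest 401 peaks. The count with both proteins was 6, 23 and 1, for which no share of all genes is given here. DMSO replicate 1 alone listed WDR5 at 19.5% of all genes, so the share with 1 library is at least that. With every library it is at most 4.33%, the share listed in both replicates 2 and 3. Leaving out a library gave 7 to 12 for WDR5 and 7 to 12 for both. Of all genes, WDR5 was bound at 1.86% with the strongest 401 peaks (3.39% of the group). With a library left out it was at 4.33 to 6.75% of all genes (11.9 to 20.3% of the group). Under the compound, 1 library gave 18 genes for WDR5 and 18 for both. Compound replicate 1 alone listed WDR5 at 16.7% of all genes (30.5% of the group). In IMR-32, 1 library gave 17 and 15, the strongest peaks 4 and 3, and leaving out a library 9 to 16 for WDR5 and 6 to 11 for both. Of all genes, WDR5 was bound there at 1.77% with the strongest peaks and at 6.13 to 8.16% with a WDR5 library left out. With 1 library the share of all genes is at least 8.16%. With unlisted peaks as percentile 0, the median WDR5 percentile was 0 in CHP-134 and in IMR-32, and the N-MYC median in IMR-32 was 75.1.

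In limma, the WDR5 comparison of compound with DMSO called 11 genes, 35 with centred log2 folds, 40 with ranks among the genes tested, 255 with unlisted peaks as 0, 0 with the replicate block and 0 to 90 with a library left out, and none of the group except 2 (BYSL and NCL, both lower) with unlisted peaks as 0. For N-MYC between the lines the counts were 0, then 11 with log2 folds and 358 with unlisted peaks as 0. Of the 358, 3 (DDX10, RRN3 and UTP15, lower in IMR-32) belong to the group, 5.45% of its genes tested, beside 5.37% of all genes tested. For WDR5 between the lines they were 0, then 184 with log2 folds, 29 with ranks among the genes tested and 83 with unlisted peaks as 0. In these, 2 of 5 genes of the group (BYSL and POLR1D, higher) passed with log2 folds, beside 34.3% of all genes tested. With unlisted peaks as 0, 1 of 11 (NOP14, lower, 9.09%) passed, beside 6.25% of all genes tested. The cause of these differences was not tested. The replicate block, which pairs the N-MYC libraries of CHP-134, called 0 genes there and 0 in both comparisons of the lines. The same-number correlations of WDR5 under the compound were 0.403 and 0.232, and those between the lines -0.00906 to 0.11, so that pairing by number is not shown for these 3 comparisons.

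Single genes turned direction as follows, at adjusted p of 0.49 or more in each case. N-MYC at BYSL under the compound ran from -35.9 to 0.808 with a library left out (0.808 without compound replicate 2), and N-MYC at DDX21 between the lines ran from -5.54 (without DMSO replicate 2) to 35.4. For WDR5 between the lines, RRP1B was -0.302 with log2 folds, -1.91 with ranks among the genes tested and -11.1 with the replicate block, and ran from -11.1 to 26.6 with a library left out, with the negative values without DMSO replicate 2 and IMR-32 replicate 1 (-10.4). POLR1D ran from -0.465 (without DMSO replicate 3) to 9.93. NCL was 2.3 with ranks among the genes tested and ran from -9.18 to 0.628 (without DMSO replicate 1). NPM1 ran from -4.32 (without DMSO replicate 3) to 4.03, and was -2.22 without IMR-32 replicate 1.

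With the canonical TSS alone, added after seeing the data, WDR5 was bound at 10 genes in CHP-134 DMSO and 7 in IMR-32, and N-MYC at 56, 54 and 44.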
